A study of Mus musculus with 16 samples.

Results

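Kit and 4 mast cell protease genes (Cma1, Tpsb2, Cpa3 and Mcpt8) were followed over 6 mouse cell groups. The 5 genes were picked by symbol from the 17710 genes that the array's 26423 probes name, and each was read by 1 probe. They were chosen with their levels on these arrays already known, so the levels below are a description and carry no test. All 16 arrays came from C57BL/6 mice of the genotype given as Normal. Heart c-kit cells (3 arrays) were sorted from the heart by flow cytometry for c-kit, the protein that Kit encodes. Marrow c-kit cells (3 arrays) were sorted in the same way from bone marrow. Heart Sca1 cells (3 arrays) were sorted for stem cell antigen 1 and for lack of CD45 and CD31, the leukocyte and endothelial antigens. Heart side population cells (2 arrays) were chosen by their export of a Hoechst dye. Marrow mesenchymal stem cells (MSC, 3 arrays) were grown from bone marrow and harvested after 5 passages, and cardiomyocytes (2 arrays) were collected by slow centrifugation (100 rpm, 1 min). The labels give Matrigel-coated dishes and mTeSR medium as the growth conditions of every sample, and the sources used here state no age, number of animals, purity of the sort or time in culture. Whether replicates are separate animals is not stated either. The p-values therefore set a difference between groups only against the scatter of these arrays within groups, which may be technical. The small number of arrays limits their precision.

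Mast cells are resident immune cells that depend on Kit, the receptor tyrosine kinase for stem cell factor, throughout their life. Most other blood lineages lose Kit as they mature, whereas progenitors in the bone marrow carry it. Mast cell granules hold serine proteases of the chymase and tryptase kinds and a carboxypeptidase, stored on heparin chains of the proteoglycan serglycin. In mice, Cma1 encodes the chymase mast cell protease 5, Tpsb2 the tryptase mast cell protease 6, and Cpa3 the mast cell carboxypeptidase A3, which basophils also carry. Mcpt8 encodes mast cell protease 8, which in spite of its name is known in the mouse as a protease of basophils.

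Promoter sequences are shown because Kit and Cpa3 moved together over the groups while Cma1 and Mcpt8, near neighbours on chromosome 14, did not. Sequences were available for 4 of the 5 genes, and Tpsb2 had none in the reference used. They are from RefSeq on GRCm38.p6 and run from 250 bases before to 50 bases after the start that the table uses, 5′ to 3′ on the strand of the gene. Capitals mark each GATAA on either strand (TTATC when read on the printed strand), the core that GATA factors bind, and each CANNTG, the E-box core bound by basic helix-loop-helix factors such as Mitf. CANNTG reads the same on both strands, and no marked letters overlapped.
Kit promoter (chr5:75574737-75575036, plus strand): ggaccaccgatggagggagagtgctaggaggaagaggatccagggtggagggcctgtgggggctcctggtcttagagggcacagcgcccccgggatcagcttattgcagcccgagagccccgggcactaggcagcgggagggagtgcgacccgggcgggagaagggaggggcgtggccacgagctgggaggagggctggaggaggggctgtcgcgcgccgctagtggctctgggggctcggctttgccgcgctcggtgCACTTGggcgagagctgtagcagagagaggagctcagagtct
Cpa3 promoter (chr3:20242132-20242431, minus strand): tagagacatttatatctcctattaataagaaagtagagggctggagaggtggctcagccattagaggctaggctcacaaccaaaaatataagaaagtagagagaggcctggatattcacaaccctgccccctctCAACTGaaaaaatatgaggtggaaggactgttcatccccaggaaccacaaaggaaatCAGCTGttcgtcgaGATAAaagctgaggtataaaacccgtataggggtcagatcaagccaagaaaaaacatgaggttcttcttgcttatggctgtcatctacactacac
Cma1 promoter (chr14:55944626-55944925, minus strand): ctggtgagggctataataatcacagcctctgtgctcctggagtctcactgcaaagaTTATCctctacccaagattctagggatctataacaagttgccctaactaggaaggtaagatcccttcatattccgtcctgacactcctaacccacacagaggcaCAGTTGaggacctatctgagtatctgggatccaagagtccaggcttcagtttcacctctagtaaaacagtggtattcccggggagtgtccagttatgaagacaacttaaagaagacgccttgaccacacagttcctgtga
Mcpt8 promoter (chr14:56085148-56085447, minus strand): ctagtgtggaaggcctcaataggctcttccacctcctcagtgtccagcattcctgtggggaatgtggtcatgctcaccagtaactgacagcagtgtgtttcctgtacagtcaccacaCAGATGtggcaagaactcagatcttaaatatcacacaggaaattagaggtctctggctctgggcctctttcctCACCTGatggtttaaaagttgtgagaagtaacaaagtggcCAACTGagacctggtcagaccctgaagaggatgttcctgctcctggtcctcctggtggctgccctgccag
The Kit window was 69% G and C and held 1 CANNTG and no GATAA. The Cpa3 window held GATAA at -45 and CANNTG at -116 and -59, counted from the start. The Cma1 window held TTATC at -194 and CANNTG at -90, and the Mcpt8 window held CANNTG at -133, -60 and -20 and no GATAA. Of 32851 mouse promoter windows of this length, 25.41% held GATAA on either strand, 72.31% held CANNTG and 19.39% held both. A match describes letters in the window and shows no binding. Kit has 2 starts in the table, of which the first is shown. The start used for Mcpt8 lies inside the gene's annotated span, and so does its whole window.

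The deposited values were log2 spot intensities of the Cy5 channel, centred on each array. They were quantile normalised here, and a level below is such a log2 value, with 0 near the mean of an array and a difference of 1 equal to a 2-fold change. Each array repeated a single fill value at 3.38% to 13.8% of its probes, taken as spots without a usable signal, and intensities are given in scanner units recovered from the table. Median intensities ranged from 25 to 223. Both side population arrays (25 and 34) and heart c-kit replicate 2 (35) were the dimmest. Replicates correlated across genes at 0.791 to 0.805 in heart c-kit cells and at 0.925 to 0.932 in marrow c-kit cells. Cardiomyocyte markers averaged 6.73 and 6.82 on the cardiomyocyte arrays and 1.21 to 2.57 on the heart c-kit arrays. The cardiomyocyte arrays also carried endothelial markers at 6.27 and 6.73, fibroblast markers at 4.55 and 5.16 and macrophage markers at 1.92 and 3.58. A level on these arrays can therefore not be assigned to 1 cell type. MSC arrays carried macrophage markers at 4.29 to 4.98, as a mean over 9 genes, against 1.15 to 1.71 in marrow c-kit cells. In such bulk samples, fewer cells of a type and less RNA per cell cannot be told apart.

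Marrow c-kit cells had the highest Kit of the 6 groups and heart c-kit cells the next. It read 2.13, 5.04 and 3.83 on the heart c-kit arrays (intensities of 301, 2439 and 1420) and 5.18, 5.82 and 5.50 on the marrow c-kit arrays. All 3 heart arrays lay below all 3 marrow arrays, and the heart arrays were spread over almost 3 log2 units. Heart Sca1 cells stood at -1.82, -3.18 and 0.28, side population cells at -0.07 and -0.40, MSC at -1.48, -1.83 and -1.53, and cardiomyocytes at 0.37 and 2.16. The second cardiomyocyte array thus lay above heart c-kit replicate 1. Group means were 3.67 ± 1.46 (SD, n = 3) in heart c-kit cells and 5.50 ± 0.32 (n = 3) in marrow c-kit cells, followed by 1.26 ± 1.27 (n = 2) in cardiomyocytes, -0.24 ± 0.23 (n = 2) in side population cells, -1.57 ± 1.74 (n = 3) in heart Sca1 cells and -1.61 ± 0.19 (n = 3) in MSC. Neighbours in this order overlapped except marrow and heart c-kit cells and except cardiomyocytes and side population cells. The sorted marker was therefore present in both sorted groups, with heart c-kit cells 5.24 above heart Sca1 cells and 1.83 below marrow c-kit cells. With array medians aligned in place of quantile normalisation the gap to marrow c-kit cells was 0.32, so its size depends on the scaling.

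Cma1, the chymase, was high in heart c-kit cells alone among the 6 groups. It read 3.91, 3.91 and 3.04 on the heart c-kit arrays, with intensities of 663, 858 and 782. The other 13 arrays lay between -3.36 and 0.16, with intensities of 8 to 109, and none overlapped with the heart c-kit arrays. Group means were 3.62 ± 0.50 (SD, n = 3) in heart c-kit cells, -0.49 ± 0.19 (n = 2) in side population cells, -0.92 ± 1.54 (n = 2) in cardiomyocytes, -1.65 ± 0.15 (n = 3) in MSC, -1.81 ± 1.34 (n = 3) in heart Sca1 cells and -2.40 ± 0.80 (n = 3) in marrow c-kit cells. All neighbours below heart c-kit cells overlapped. Heart c-kit cells exceeded marrow c-kit cells by 6.02 (65.1-fold), heart Sca1 cells by 5.43 (43.3-fold) and side population cells by 4.11 (17.2-fold). These differences kept their sign under every alternative run.

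Tpsb2, the tryptase, was also highest in heart c-kit cells, but its probe gave signal in every group. It read 7.35, 5.70 and 6.33 in heart c-kit cells, with intensities of 4590, 4199 and 8412. Marrow c-kit cells read 3.87, 2.28 and 2.54, heart Sca1 cells 2.02, 1.97 and 2.80, side population cells 2.75 and 2.52, MSC 1.54, 1.81 and 1.14, and cardiomyocytes 5.61 and 2.61. No array reached the lowest heart c-kit array, and cardiomyocyte replicate 1 came within 0.1 of it. The cardiomyocyte arrays lay 3 log2 units apart on the normalised scale, with Tpsb2 intensities of 1159 and 929. Median intensities of these arrays were 109 and 223, so their raw intensities are not on the same scale. The size of the distance depends on the scaling. Means were 6.46 ± 0.83 (SD, n = 3) in heart c-kit cells, 4.11 ± 2.12 (n = 2) in cardiomyocytes, 2.90 ± 0.85 (n = 3) in marrow c-kit cells, 2.63 ± 0.16 (n = 2) in side population cells, 2.26 ± 0.46 (n = 3) in heart Sca1 cells and 1.50 ± 0.34 (n = 3) in MSC. The groups from cardiomyocytes to heart Sca1 cells overlapped with their neighbours, and MSC lay below the heart Sca1 cells. The difference of heart c-kit cells to cardiomyocytes was 2.35, but 0.85 without cardiomyocyte replicate 2 and 3.85 without cardiomyocyte replicate 1. That to heart Sca1 cells was 4.20 and to marrow c-kit cells 3.57.

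Cpa3, the carboxypeptidase, was highest in marrow c-kit cells and next in heart c-kit cells, in the same order as Kit. It read 3.74, 0.47 and 3.50 in heart c-kit cells and 4.27, 4.43 and 5.10 in marrow c-kit cells. Heart c-kit replicate 2, which had the highest Kit of its group, had the lowest Cpa3, with an intensity of 28 against 614 and 1111 on the other heart c-kit arrays. Heart Sca1 cells read -0.35, -1.81 and 0.60, side population cells 0.75 and 0.60, MSC -2.28, -3.36 and -2.53, and cardiomyocytes -2.50 and -0.35. Means were 2.57 ± 1.82 (SD, n = 3) in heart c-kit cells, 4.60 ± 0.44 (n = 3) in marrow c-kit cells, 0.68 ± 0.10 (n = 2) in side population cells, -0.52 ± 1.21 (n = 3) in heart Sca1 cells, -1.43 ± 1.52 (n = 2) in cardiomyocytes and -2.72 ± 0.57 (n = 3) in MSC. Marrow c-kit cells stood clear of heart c-kit cells, and heart c-kit cells overlapped with side population cells through replicate 2. The mean difference of heart c-kit to heart Sca1 cells was 3.09 with all arrays and 4.14 without heart c-kit replicate 2. To marrow c-kit cells it was -2.03, and -0.98 without that array.

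Mcpt8, the basophil protease, was high in both marrow groups and near or at the floor in every heart group and in cardiomyocytes. Heart c-kit cells read -4.56, -5.10 and -3.05, with intensities of 11 and 5 on replicates 1 and 3 and the fill value on replicate 2. Marrow c-kit cells read 6.41, 6.44 and 6.26, with intensities of 2050, 6594 and 4208. MSC read 5.07, 5.21 and 5.06, with intensities of 4311, 6234 and 3261. The cultured MSC thus carried the gene at a level not far under that of the sorted marrow cells, and these groups did not overlap. Heart Sca1 cells ranged from -5.65 to -2.87, side population cells from -5.06 to -2.27 and cardiomyocytes from -6.11 to -5.26, and each of these groups held 1 array at the fill value. The difference of heart c-kit to marrow c-kit cells was -10.61, or -8.01 once values under the 30th percentile were set to it, and its exact size is uncertain because 1 side lies at the floor. Among the heart groups the sign of Mcpt8 differences changed with single arrays or with the floor. Macrophage markers were also high on the MSC arrays, and their part in the Mcpt8 level was not tested. Other genes listed as basophil markers did not follow Mcpt8 as a set. In marrow c-kit cells and MSC, Prss34 averaged -1.53 and -2.07, Cd200r3 -4.57 and -5.97 and Fcer1a -1.65 and -5.20. Il3ra averaged 0.95 and 4.75. No basophil signal is therefore read from Mcpt8 alone.

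**Figure D1:**
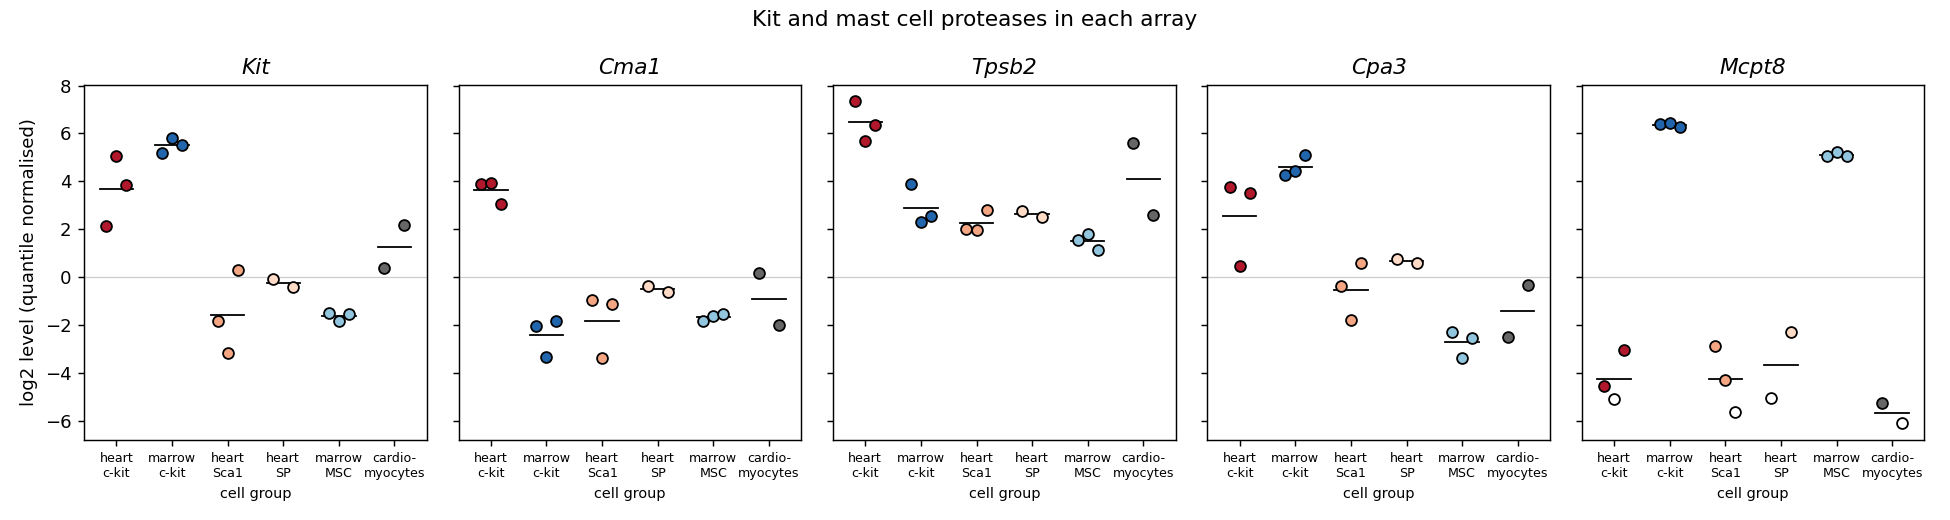
Log2 level (vertical axis, quantile normalised) of Kit, Cma1, Tpsb2, Cpa3 and Mcpt8 on each of the 16 arrays by cell group, with points for arrays, bars for group means and open points for arrays at the fill value. Heart c-kit cells lie above all other groups for Cma1 and Tpsb2, marrow c-kit cells lead for Kit and Cpa3, and Mcpt8 stands above 5 in both marrow groups and below -2 in every heart group and in cardiomyocytes.

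Set side by side, heart c-kit cells lay wholly above heart Sca1 cells for 3 of the 5 genes (Kit, Cma1 and Tpsb2), a state that 18.2% of all genes showed. They lay wholly above side population cells for the same 3 genes (15% of all genes). Against marrow c-kit cells, Cma1 and Tpsb2 lay wholly above (12.2% of all genes) and Kit, Cpa3 and Mcpt8 wholly below (13.3%). Against MSC, 4 genes lay above (17.1%) and Mcpt8 below (17.3%). Against cardiomyocytes, 4 lay above (14.4%), among them Mcpt8 only through levels at the floor, and Kit overlapped. Marrow c-kit cells lay above MSC for 4 genes (21.1%) and below for Cma1 (20.8%), the last by 0.75 between groups that were both dim. These comparisons share the heart c-kit or the marrow c-kit arrays, and the genes were chosen on them, so nothing is read from the counts.

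Across the 16 arrays, which fall into 6 groups and share platform and amplification, the closest of the 10 pairs by Pearson correlation were Cma1 with Tpsb2 (Pearson r = 0.855, Spearman rho = 0.594) and Kit with Cpa3 (r = 0.826, rho = 0.776). By rank, Kit with Tpsb2 (rho = 0.603, r = 0.465) stood level with Cma1 and Tpsb2. Cpa3 ranked 26th among all genes by likeness to Kit, and Tpsb2 ranked 7th by likeness to Cma1. Kit and Cma1, in contrast, had r = 0.266 and rho = 0.026, since Kit was high and Cma1 low in marrow c-kit cells. Cma1 and Mcpt8 ran in opposite directions (r = -0.482). By the group with the highest mean, heart c-kit cells led for Cma1 and Tpsb2 and marrow c-kit cells for Kit, Cpa3 and Mcpt8.

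**Figure D2:**
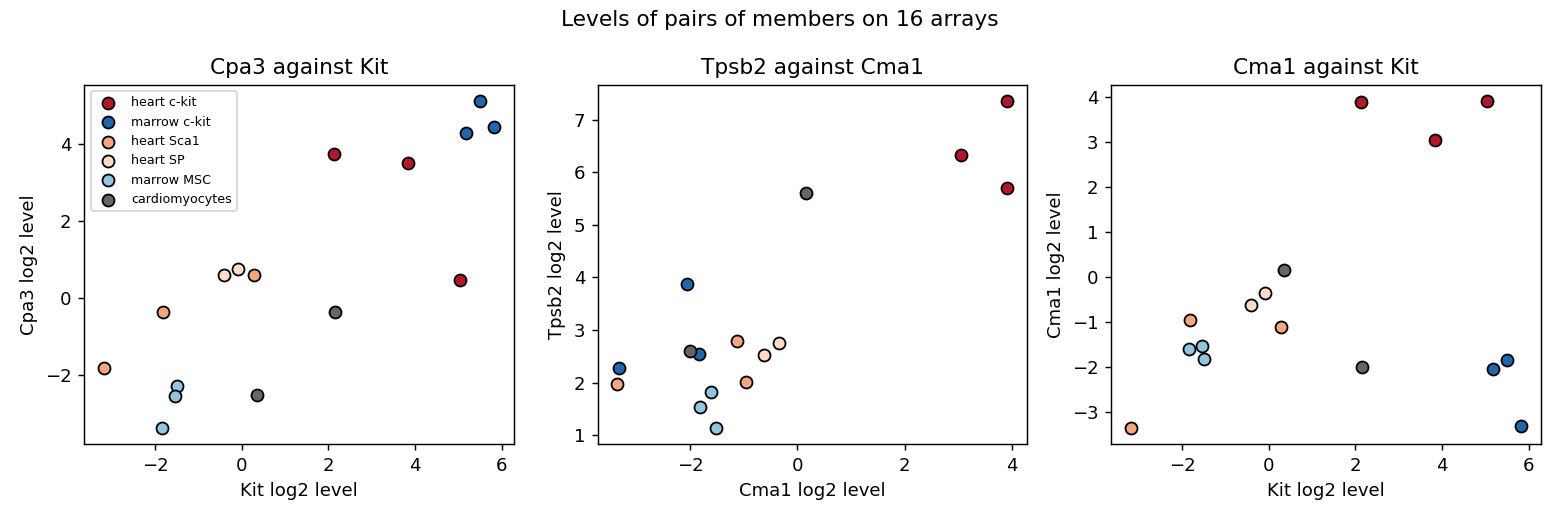
Log2 levels of 3 pairs of genes on 16 arrays, with 1 point per array coloured by cell group: Cpa3 against Kit, Tpsb2 against Cma1 and Cma1 against Kit. Both c-kit groups lie high for Kit, but only the heart c-kit arrays lie above 3 for Cma1, and heart c-kit replicate 2 pairs a Kit level of 5.04 with a Cpa3 level of 0.47.

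By the same measure, the 5 genes most like Kit were F2rl3 (r = 0.896), Cab39, Dr1, Ybx3 and Abra, with r of at least 0.885. F2rl3, a thrombin receptor, stood at 4.74 ± 1.19 in heart c-kit cells and 5.72 ± 0.04 in marrow c-kit cells (SD, n = 3 each), against -0.51 ± 3.00 in heart Sca1 cells (n = 3). Most like Cma1 were Fam167b (r = 0.901), Ednrb (r = 0.898), Aloxe3, Hoxc11 and 1700009N14Rik, the last at the fill value on 6 arrays. Ednrb, an endothelin receptor, was at 7.06 ± 0.29 in heart c-kit cells and 1.39 ± 0.36 in marrow c-kit cells (n = 3 each), and it also came close to Tpsb2 (r = 0.886). The genes most like Tpsb2 were Ccl22 (r = 0.952), Calr3, Ednrb, Tnfrsf18 and Mlana. Ccl22, a chemokine, was at 4.90 ± 1.12 in heart c-kit cells and 1.94 ± 0.63 in marrow c-kit cells (n = 3 each). Cpa3 was most like Nsmce2 (r = 0.910), Ybx3, Rps7, Tax1bp1 and Ahsa1. Mcpt8 was most like Atp8b4 (r = 0.967), Ncf4 (r = 0.966), Runx3, Hk3 and Tpi1. Ncf4, a subunit of the phagocyte oxidase, stood at -3.98 ± 1.01 on the heart c-kit arrays, 3.85 ± 0.22 on the marrow c-kit arrays and 3.12 ± 0.18 on the MSC arrays (n = 3 each).

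The question of whether other mast cell genes moved with these 5 was read from 36 measured genes of a list of 40, which holds granule proteases, receptors and mediators, and transcription factors. Calls are limma moderated tests adjusted by Benjamini-Hochberg over all 17710 genes, at an adjusted p under 0.05. Against heart Sca1 cells, 5 of the 36 rose and 1 fell in heart c-kit cells, while 11.1% of all genes were called (3.29% higher and 7.81% lower). Heart Sca1 cells were sorted for lack of the leukocyte antigen CD45, and what this adds to the differences cannot be told apart. The heart Sca1 arrays were not alike in leukocyte genes. Macrophage markers averaged -1.97, -2.28 and 2.19 on them, against -1.10 to -0.64 on the heart c-kit arrays, and none of the 9 was called. The median difference of the list was 0.51, against 0.23 for all genes. Fcer1g, the signalling chain of the IgE receptor, rose by 3.90 ± 0.80 (SE; limma adjusted p = 0.00639). It read 5.17, 4.23 and 4.37 in heart c-kit cells and 0.76, -0.04 and 1.35 in heart Sca1 cells. Srgn, which encodes serglycin, rose by 3.10 ± 0.67 (adjusted p = 0.00897). Zfpm1, a partner of GATA factors, rose by 3.51 ± 0.64 (adjusted p = 0.00306). Csf2rb, the shared receptor chain for interleukin 3, rose by 3.13 ± 0.85 (adjusted p = 0.0294), and the chymase Mcpt2 rose by 3.11 ± 0.92 (adjusted p = 0.0435) between groups that were both dim, at -1.56 ± 0.75 in heart c-kit cells and -4.67 ± 1.14 in heart Sca1 cells (SD, n = 3 each). Stat5a, which signals below Kit and cytokine receptors, fell by 4.62 ± 1.08 (SE; adjusted p = 0.0138). Only the call of Fcer1g held under all 14 alternatives. Those of Srgn and Zfpm1 were lost when only the compared arrays were fitted, and those of Csf2rb, Mcpt2 and Stat5a also without single arrays, Stat5a without heart Sca1 replicate 2 or 3. Without heart Sca1 replicate 2, 3 genes of the list were called.

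The list's members differed widely in heart c-kit cells, and the genes named here to show this were chosen after their values were seen. Csf2rb (5.73 ± 1.75), Srgn (4.76 ± 0.24) and Fcer1g (4.59 ± 0.51; SD, n = 3 each) were far above the floor, as were Ndst2 and Hpgds. In contrast, Ms4a2 and Fcer1a, the other IgE receptor chains besides Fcer1g, and the histamine gene Hdc were at or near it. Ms4a2, the beta chain of the IgE receptor, was at the fill value on replicate 1 and at intensities of 6 and 5 on the others, against 109, 243 and 124 in marrow c-kit cells. Fcer1a, the IgE-binding chain, was at the fill value on replicate 2 and at 6 and 7 on the other heart c-kit arrays, against 19, 14 and 36 in marrow c-kit cells. Hdc, which makes histamine, was at the fill value on replicate 2 and at 3 and 12 on the others, against 304, 670 and 931 in marrow c-kit cells. In heart c-kit cells Tpsab1 averaged -4.94, Tpsg1 -4.95 and Mrgprb2 -5.0. Tpsab1, the neighbouring tryptase gene, is annotated as a transcribed pseudogene in the RefSeq table, and its loss in C57BL/6 mice is known. Mast cell receptors and mediators averaged -1.35 to -1.06 over the 3 heart c-kit arrays and 1.41 to 1.56 over the marrow c-kit arrays. The list genes named as far above the floor were not particular to heart c-kit cells. In MSC, Csf2rb averaged 7.40, Fcer1g 7.60, Ndst2 3.18 and Hpgds 4.44, and Srgn averaged 4.87 in cardiomyocytes. Each of them also averaged lower than in heart c-kit cells in some other group. Thus Kit, Cma1, Tpsb2 and, on 2 of 3 arrays, Cpa3 were high in heart c-kit cells together with some mast cell genes of the list, which other groups also carried, and without clear signal of others.

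**Figure D3:**
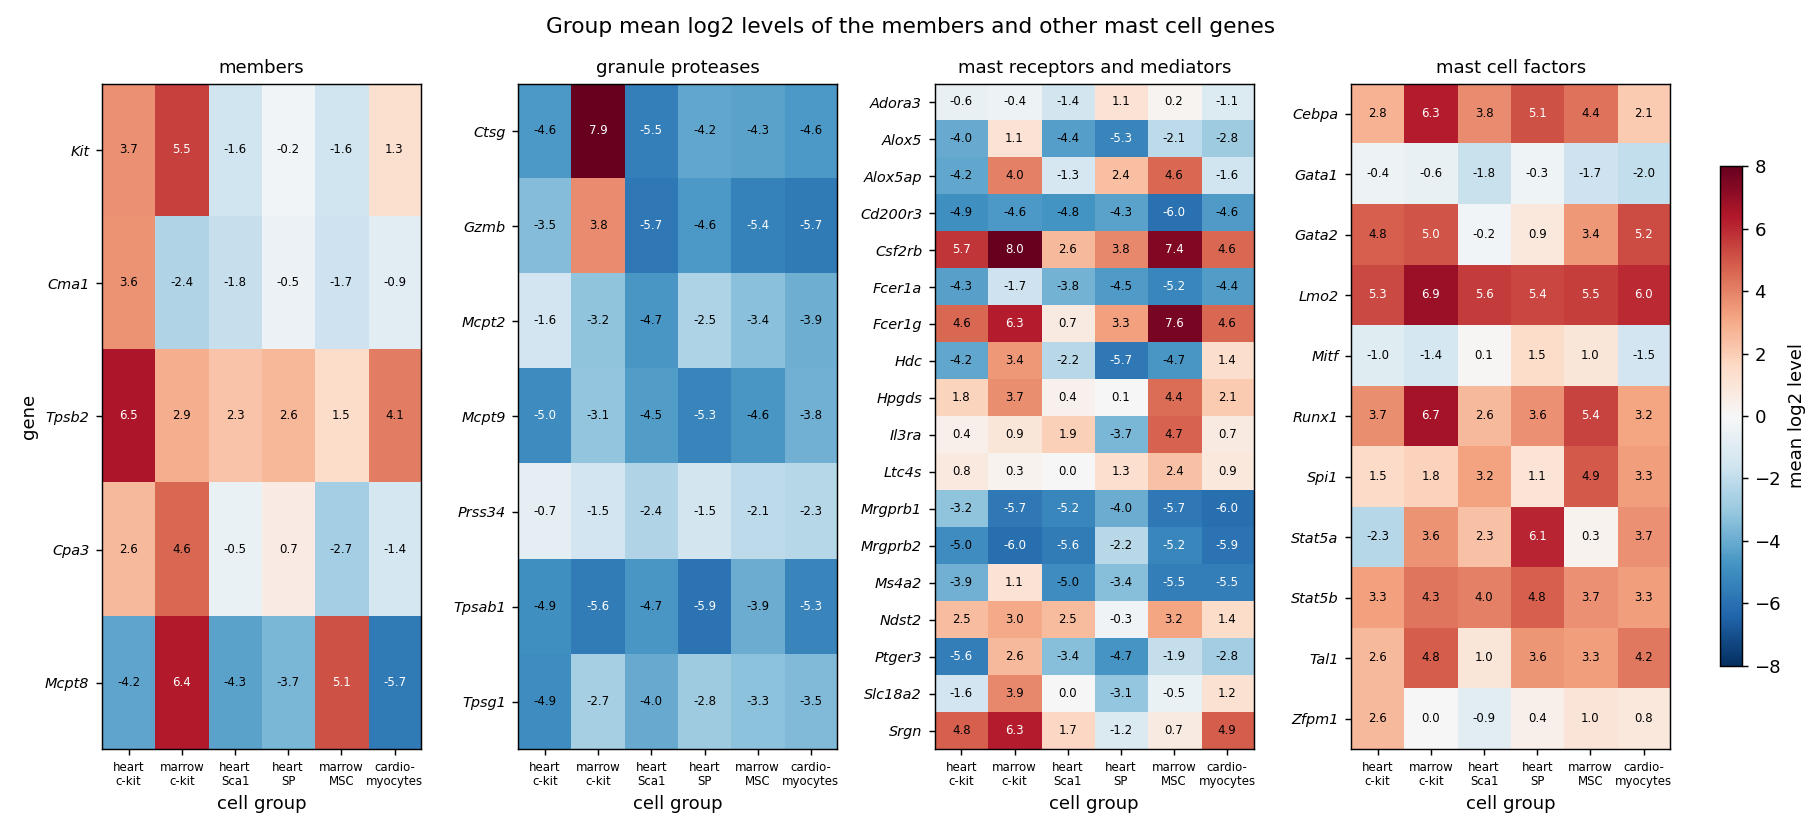
Group mean log2 levels of the 5 genes and of 36 other mast cell genes in 3 lists (rows) in the 6 cell groups (columns), with colour and printed number giving the mean. Ctsg, Gzmb, Hdc and Ms4a2 are above 1 in marrow c-kit cells and below -3 in heart c-kit cells, whereas Gata2, Lmo2, Srgn and Fcer1g are above 4 in both. None of the last is particular to the c-kit groups. Lmo2 averages 5.29 or more in all 6 groups, Gata2 5.23 and Srgn 4.87 in cardiomyocytes, and Fcer1g 7.60 in MSC.

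Against marrow c-kit cells, 11 of the 36 mast cell genes fell and 1 rose in heart c-kit cells (10.8% of all genes were called, 4.88% higher and 5.91% lower). The list's median difference was -1.65, against 0.11 for all genes. Among the proteases, Ctsg, which encodes cathepsin G of neutrophil precursors and mast cells, fell by 12.56 ± 0.91 (SE; limma adjusted p = 1.19e-06). It read -5.50, -2.95 and -5.41 in heart c-kit cells and 8.55, 7.93 and 7.34 in marrow c-kit cells. Gzmb, granzyme B, fell by 7.28 ± 0.79 (adjusted p = 3.07e-05). Among mediators and receptors the differences were -8.22 ± 1.55 for Alox5ap of leukotriene synthesis (adjusted p = 0.00288), -7.60 ± 1.27 for Hdc (adjusted p = 0.0012) and -5.43 ± 1.26 for the monoamine transporter Slc18a2 (adjusted p = 0.0117). That of the prostaglandin receptor Ptger3 was -8.13 ± 1.22 (adjusted p = 0.000499), with all 3 heart c-kit arrays at the fill value, so its size is not measured. Ctsg, Gzmb, Alox5ap, Hdc and Ms4a2 were also at or near the floor in heart c-kit cells, and their sizes are not exact. Stat5a was dim there too, at intensities of 5 to 64. Its size is therefore not exact in any comparison of heart c-kit cells. Over the alternatives the smallest differences were -9.58 for Ctsg, -5.68 for Alox5ap, -5.08 for Hdc and -2.77 for Ms4a2. Ms4a2 fell by 4.99 ± 0.95 (adjusted p = 0.00314). Among factors, the differences were -5.86 ± 1.08 for Stat5a (adjusted p = 0.00245), -3.47 ± 0.67 for Cebpa (adjusted p = 0.00351) and -2.95 ± 0.81 for Runx1 (adjusted p = 0.0307). Zfpm1 rose by 2.62 ± 0.64 (adjusted p = 0.0154). Gata2, the GATA factor of mast cells and progenitors, differed by -0.25 ± 1.94 (SE; limma adjusted p = 0.966). It read 4.41, 5.35 and 4.60 in heart c-kit cells and 4.61, 4.95 and 5.55 in marrow c-kit cells, and it averaged 5.23 in cardiomyocytes. Its SE comes from a spread shared by all 6 groups, with SDs of 7.39 in side population cells and 3.07 in heart Sca1 cells. The SDs of the heart and marrow c-kit cells were 0.50 and 0.48. Cebpa lost its call with array medians aligned, Runx1 without heart c-kit replicate 2 or any single marrow c-kit array, Slc18a2 without marrow c-kit replicate 2, and Zfpm1 without marrow c-kit replicate 1 or heart c-kit replicate 2. Neutrophil granule genes moved with these falls, at -1.29 to -0.04 on the heart c-kit arrays and 5.04 to 5.63 on the marrow c-kit arrays as a mean over 9 genes, with 6 of 9 called lower, and their part in the result was not tested.

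The remaining groups gave counts of 3, 6 and 2. In heart c-kit cells set against side population cells, 1 of 36 rose and 2 fell (11.8% of all genes called, 5.99% higher and 5.79% lower), with a difference of 5.92 ± 0.75 for Srgn (SE; limma adjusted p = 0.000207), -8.36 ± 1.20 for Stat5a (adjusted p = 0.000566) and -6.59 ± 1.73 for Alox5ap (adjusted p = 0.0234). Alox5ap was not called without heart c-kit replicate 2 or 3 or without side population replicate 2. Without side population replicate 1 the count was 7. Against MSC, 1 rose and 5 fell (12.1% of all genes called, 4.11% higher and 8% lower). Srgn rose by 4.06 ± 0.67 (adjusted p = 0.00154), while Alox5ap fell by 8.77 ± 1.55 (adjusted p = 0.00241). The interleukin 3 receptor chain Il3ra fell by 4.36 ± 1.19 (adjusted p = 0.0287), the myeloid factor Spi1 fell by 3.35 ± 0.65 (adjusted p = 0.00458) and Fcer1g fell by 3.01 ± 0.80 (adjusted p = 0.0248). The calls of Il3ra and Fcer1g were lost without any single MSC array. Macrophage markers moved with these falls, as 7 of 9 were called lower in heart c-kit cells than in MSC, and their part was not tested. The count was 3 without MSC replicate 1 or replicate 2. Against cardiomyocytes, 2 of 36 fell (3.58% of all genes called, 0.994% higher and 2.59% lower), with differences of -5.97 ± 1.20 for Stat5a (adjusted p = 0.0135) and -5.58 ± 1.42 for Hdc (adjusted p = 0.046), and neither was called without either of the cardiomyocyte arrays.

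Marrow c-kit cells differed from MSC in 10 of the 36 genes, 8 higher and 2 lower (11% of all genes called, 3.66% higher and 7.35% lower). Ctsg was 12.25 ± 0.91 higher (SE; limma adjusted p = 1.34e-06), Gzmb 9.18 ± 0.79 higher (adjusted p = 4.05e-06), Hdc 8.10 ± 1.27 higher (adjusted p = 0.000728), Ms4a2 6.65 ± 0.95 higher (adjusted p = 0.000332) and Srgn 5.60 ± 0.67 higher (adjusted p = 7.93e-05). Spi1 was lower, with a difference of -3.05 ± 0.65 (adjusted p = 0.00708). Ctsg, Gzmb, Hdc and Ms4a2 were at or near the floor in MSC, so these sizes are not exact, and with low values raised they were as small as 2.77 for Ms4a2. Neutrophil granule genes moved with the list, with 8 of 9 called higher and a median difference of 9.99, while 4 of 9 macrophage markers were called lower. Their part was not tested. Mcpt8, in contrast, stood above 5 in both marrow groups, 1.26 apart. The count was 6 without marrow c-kit replicate 1, marrow c-kit replicate 3 or MSC replicate 2. The difference between c-kit cells and other cells of the same organ was also compared between heart and marrow, as (heart c-kit minus heart Sca1 cells) minus (marrow c-kit cells minus MSC). This interaction was called for 8 of the 36 genes, 2 of them higher and 6 lower, and for 7.43% of all genes (3.65% higher and 3.78% lower). The comparators are not alike, since heart Sca1 cells were sorted for lack of CD45 and CD31 and no such sort is stated for MSC. What this adds to a term cannot be told apart. The term was -11.38 ± 1.29 for Ctsg (adjusted p = 0.000144), -10.03 ± 1.80 for Hdc (adjusted p = 0.00359) and 5.21 ± 1.13 for Fcer1g (adjusted p = 0.0118). Neutrophil granule genes moved the same way as Ctsg, with 6 of 9 called lower and a median term of -7.41, and their part was not tested.

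Kit passes its signal through adaptors, phosphatidylinositol 3-kinase, phospholipase C and Stat5. Of 27 listed genes of this pathway, 22 were measured. The list leaves out Stat5a and Stat5b, which are counted among the mast cell genes above. Stat5a was called lower there against heart Sca1, side population and marrow c-kit cells and against cardiomyocytes. Against heart Sca1 cells, 2 rose in heart c-kit cells and none fell, with a median of -0.31 against 0.23 for all genes, of which 11.1% were called. Pik3cg, the leukocyte phosphatidylinositol 3-kinase, rose by 2.54 ± 0.62 (SE; limma adjusted p = 0.0175) and the inositol phosphatase Inpp5d by 2.83 ± 0.84 (adjusted p = 0.0434). Neither was called without heart Sca1 replicate 2 or without heart Sca1 replicate 3. The sort of heart Sca1 cells for lack of CD45 applies here too, and its part was not tested. Against side population cells, where 11.8% of all genes were called, 1 rose and 1 fell. Pik3cg rose by 2.57 ± 0.69 (adjusted p = 0.0272) and the inhibitor Socs1 fell by 2.07 ± 0.61 (adjusted p = 0.0414). Pik3cg was not called without heart c-kit replicate 2 or side population replicate 2, and Socs1 not without heart c-kit replicate 1 or side population replicate 1. Against marrow c-kit cells 6 fell and none rose, with a median of -1.03 against 0.11 for all genes, of which 10.8% were called. The differences were -5.74 ± 0.80 for the kinase Btk (adjusted p = 0.000269), -5.39 ± 1.57 for the phospholipase Plcg2 (adjusted p = 0.0402), -5.23 ± 0.99 for the kinase subunit Pik3cd (adjusted p = 0.00314) and -5.07 ± 0.97 for the phosphatase Ptpn6 (adjusted p = 0.0033). With array medians aligned, 2 of the 6 were called. Plcg2 was not called without any single marrow c-kit array or without heart c-kit replicate 1 or 3.

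Against MSC, 2 genes of Kit signalling rose in heart c-kit cells and 5 fell (12.1% of all genes called, 4.11% higher and 8% lower). The inhibitor Spred1 rose by 2.78 ± 0.57 (SE; limma adjusted p = 0.0062) and the kinase Jak2 by 3.70 ± 1.13 (adjusted p = 0.0471), whose call was lost when any single heart c-kit or MSC array was left out. The differences of those that fell were -5.32 ± 1.04 for the adaptor Dok2 (adjusted p = 0.00479), -4.89 ± 0.99 for Pik3cd (adjusted p = 0.00593), -4.62 ± 0.80 for Btk (adjusted p = 0.00212), -4.56 ± 0.97 for Ptpn6 (adjusted p = 0.00774) and -3.81 ± 0.83 for the adaptor Dok1 (adjusted p = 0.00911). Macrophage markers moved with these falls, with 7 of 9 called lower and a median difference of -7.07, and their part was not tested. Dok2 was dim in heart c-kit cells, at intensities of 1 to 78, so the size of its fall is not exact. Against cardiomyocytes limma called none of the 22, with 1 at an unadjusted p under 0.05. Kitl, the gene of stem cell factor itself, read 2.71, 2.50 and 1.74 in heart c-kit cells and 1.53, 1.26 and 0.94 in heart Sca1 cells, and its difference of 1.08 ± 0.58 was not called (adjusted p = 0.247).

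Endothelial markers stood beside Cma1 and Tpsb2 in heart c-kit cells. As a mean over 8 genes they were at 4.43 to 5.36 on the heart c-kit arrays, 0.32 to 5.31 on the heart Sca1 arrays, 0.51 and 1.00 on the side population arrays and 6.27 and 6.73 on the cardiomyocyte arrays. Compared with heart Sca1 cells, 3 of 8 were called higher (3.29% of all genes), among them Cdh5 by 5.24 ± 1.40 (SE; limma adjusted p = 0.027). Heart Sca1 cells were sorted for lack of the endothelial antigen CD31, and what this adds to the difference cannot be told apart. Melanocyte markers, another cell type that carries Kit, averaged 0.66 to 1.62 on the heart c-kit arrays and -0.43 to 0.69 on the heart Sca1 arrays over 4 genes, and none was called between these groups, with 1 at an unadjusted p under 0.05. The part of these cell types in the result was not tested.

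Cma1 and Mcpt8 belong to the chymase cluster, which spans 17 annotated genes on chromosome 14 between Cma1 (55941451 to 55944675 on GRCm38.p6) and Gzmb (56258836 to 56262334), of which 8 were measured. This view was chosen after the levels had been seen. The members lie 137 kb apart, and Mcpt8 lies 14.4 kb from Ctsg. In heart c-kit cells Cma1 averaged 3.62 ± 0.50 (SD, n = 3), Gzmn, present in all groups, 2.66 ± 1.32 and Mcpt2 -1.56 ± 0.75, while Mcpt9, Mcpt8, Ctsg, Gzmc and Gzmb averaged between -5.01 and -3.48. In marrow c-kit cells Mcpt8 (6.37 ± 0.10), Ctsg (7.94 ± 0.60) and Gzmb (3.79 ± 0.24) were high and Cma1 was low. In MSC Mcpt8 was high together with Gzmc (2.68 ± 1.89), while Ctsg and Gzmb averaged -4.31 and -5.39. Neighbouring genes therefore differed in which groups carried them. Tpsb2 lies in a tryptase cluster on chromosome 17 (25366308 to 25368096), 20.7 kb from Tpsab1 and next to Tpsg1. Heart c-kit cells, which led for Tpsb2, stood at -4.94 ± 1.52 for Tpsab1 and -4.95 ± 1.63 for Tpsg1 (SD, n = 3 each). Both neighbours were dim or at the floor in every group, so no order of the groups is read for them. Levels of different probes are not set against each other. The remaining members lie elsewhere, Kit on chromosome 5 (75574987 to 75656722) and Cpa3 on chromosome 3 (20215616 to 20242209).

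**Figure D4:**
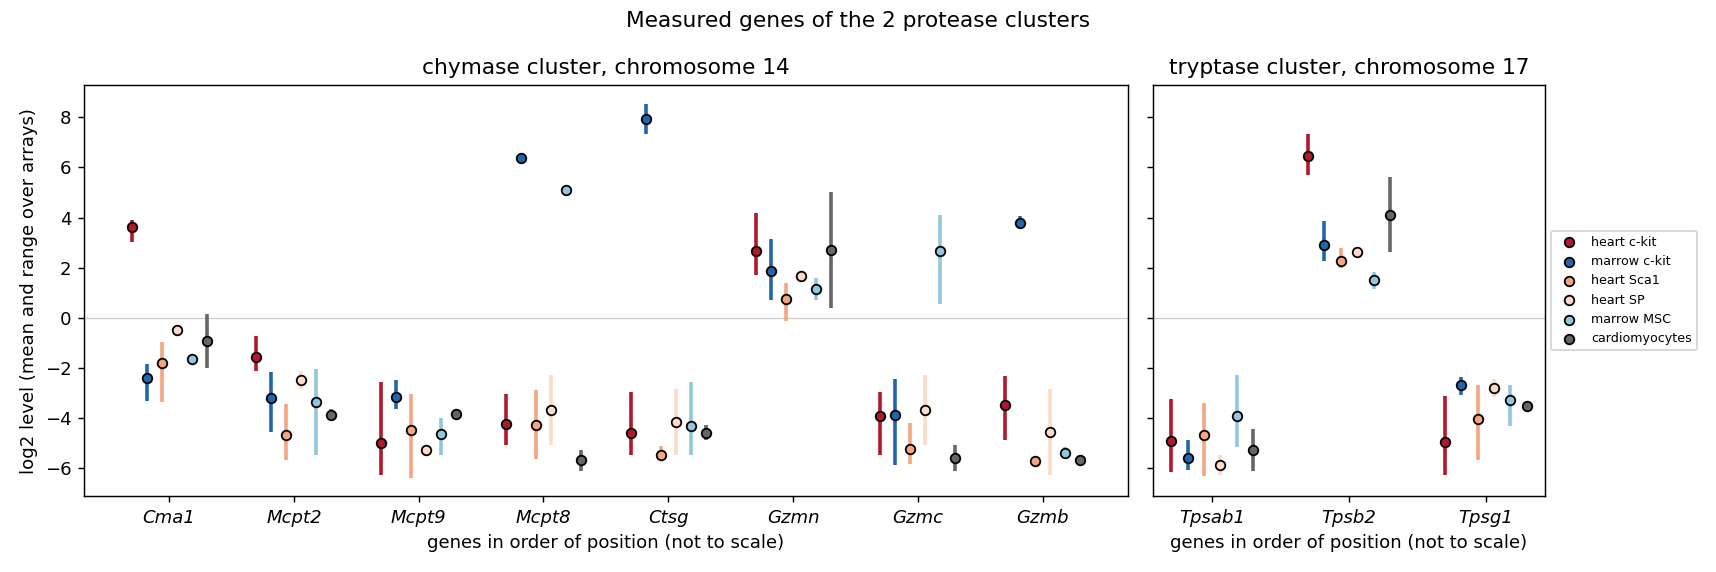
Log2 level of the measured genes of the chymase cluster on chromosome 14 and the tryptase cluster on chromosome 17 in order of position (not to scale), with points for group means and lines from the lowest to the highest array. Cma1 is led by heart c-kit cells, Mcpt8 by marrow c-kit cells and MSC, Ctsg and Gzmb by marrow c-kit cells, and Tpsb2 by heart c-kit cells, whereas Tpsab1 and Tpsg1 lie below -2 on all arrays.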

How the data were processed

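Gene expression was read on 16 mouse arrays in 6 groups set by the sample titles. Per the labels' protocols, total RNA was amplified with the WT-Ovation Pico kit and the cDNA labelled with Cy5, and the design text says that only this channel of a 2-colour array was used. The deposited values were log2 intensities that the authors had centred on each array's mean (MSC replicate 3 had a mean of 0.300). Scale and centring were read from the values, since 100% of intensities under 200 came out whole within 0.005. Not given in the sources used here are the scanner settings, any background correction and how the fill value was set.

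All 26423 probes were quantile normalised. Of the 20377 probes with a symbol, 18213 matched a current RefSeq symbol, 2126 a synonym and 38 were ambiguous, and the 6046 without a symbol were left out of the gene tests. The probe with the highest mean stood for each of 17710 genes, and for called genes of the lists with several probes all probes gave the same sign. limma 3.58.1 in R 4.3.3 (lmFit, eBayes) fitted 6 group means to the 16 arrays, with 10 residual degrees of freedom, with Benjamini-Hochberg adjustment over all 17710 genes per comparison. The fit shares 1 spread per gene over all groups. The procedure was tested on simulated data.

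The members and gene lists were chosen with earlier results of these data known. Genes named besides the members were up to 4 called genes per list and comparison with the largest absolute log2 difference, up to 2 where none was called, up to 2 markers of other cell types, and the 5 genes most correlated with each member. Outside this rule, after their values were seen, Fcer1a, Ms4a2 and Hdc levels in heart c-kit cells, Tpsab1, Tpsg1, Mrgprb2, Csf2rb, Srgn, Fcer1g, Ndst2 and Hpgds levels there, Gata2, Lmo2, Kitl, Dok1, Spred1, Jak2 and the genes beside Cma1, Mcpt8 and Tpsb2 were named. The other basophil markers set beside Mcpt8 were named in the same way. Some genes of the lists, and Ly6a, were not analysed here. Replicate numbers were checked for pairing: deviations from the group means of same-numbered arrays correlated with a median of 0.00739 (36 pairs), against -0.000746 for other pairs (70), so the numbers were not taken to pair samples. Alternatives were other scalings, filters and floors for low values, another probe rule, a block for replicate number, array weights, fits of only the compared arrays and fits without each array.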

Additional observations from a re-analysis of the deposited data

Results flagged for a closer look

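In 8 genes by test, and in Cma1 without one, the difference between c-kit cells and other cells of the same organ was unlike in the heart (heart c-kit minus heart Sca1 cells) and in the marrow (marrow c-kit cells minus MSC), a comparison in which 7.43% of all genes were called. The test is the interaction term of the limma fit, heart difference minus marrow difference. Heart Sca1 cells were sorted for lack of CD45 and CD31 and no such sort is stated for MSC, so what this adds to a term cannot be told apart. The term was negative for Ctsg at -11.38 (adjusted p = 0.000144), Hdc at -10.03 (adjusted p = 0.00359), Stat5a at -7.92 (adjusted p = 0.00582), Gzmb at -6.93 (adjusted p = 0.00186), Ptger3 at -6.64 (adjusted p = 0.0313) and Ms4a2 at -5.51 (adjusted p = 0.0231). It was positive for Fcer1g at 5.21 (adjusted p = 0.0118) and Zfpm1 at 4.54 (adjusted p = 0.00707). Ptger3 and Ms4a2 were not called with array medians aligned or without some single arrays, such as marrow c-kit replicate 2. Neutrophil granule genes moved with the negative terms (6 of 9 called lower, median -7.41), and their part was not tested. Ctsg, Hdc, Gzmb, Ms4a2 and Ptger3 were at or near the floor in 1 or more groups, so the sizes of their terms are not exact. Stat5a was dim in heart c-kit cells, and the size of its term is not exact either. For Fcer1g, MSC at 7.41, 7.97 and 7.43 lay above marrow c-kit cells at 6.53, 5.87 and 6.48, and MSC also carried macrophage markers, whose part was not tested. For Cma1 the heart difference was positive and the marrow difference negative on all arrays, with a term of 6.19. The marrow difference was -0.75 between groups that were both dim, and over the alternatives it came as close to none as -0.047. The term for Cma1 was not tested because the gene was chosen with its levels known.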

How the results depend on the processing

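Each comparison was rerun with 1 choice changed at a time. No called gene of the lists changed direction under any alternative, and among the 5 members only Mcpt8 did, for heart c-kit cells against heart Sca1 or side population cells and for the interaction, while its difference to cardiomyocytes became 0 with low values raised. Counts of called mast cell genes moved over 1.5 times as follows. For heart c-kit against heart Sca1 cells the 6 genes became 1 when only the compared arrays were fitted. Against side population cells the 3 became 5 with the deposited values, 6 without the lowest 30% of genes, and 1 with array weights or only the compared arrays. Against marrow c-kit cells the 12 became 7 without the lowest 30% of genes, in which fewer list genes are tested. Against cardiomyocytes the 2 became 0 with array medians aligned, the deposited values, array weights or only the compared arrays, and 1 without the lowest 30%. For marrow c-kit cells against MSC the 10 became 5 without the lowest 30%, 17 with array weights and 16 with only the compared arrays, and the interaction count of 8 became 5 without the lowest 30%. Counts of called Kit signalling genes against heart Sca1 cells, 2, became 0 with the deposited values or only the compared arrays and 1 with raised low values or array weights. Against side population cells the 2 became 1 with the replicate block and 0 with array weights or only the compared arrays. Against marrow c-kit cells the 6 became 2 with array medians aligned or only the compared arrays. The replicate block moved no other count by over 1.5 times. Without single arrays, mast cell counts ran from 3 to 6 against heart Sca1 cells, 4 to 7 against side population cells, 10 to 15 against marrow c-kit cells, 3 to 7 against MSC and 0 to 2 against cardiomyocytes, and from 6 to 8 for marrow c-kit cells against MSC and 6 to 11 for the interaction. Kit signalling counts ran from 0 to 3, 1 to 3, 4 to 7, 6 to 8 and 0 to 1 in the 5 comparisons of heart c-kit cells. Apart from the filter on low genes, the cause of these changes was not tested. Scaling shifted the median difference of all genes, for example from 0.13 to 0.83 for heart c-kit cells minus cardiomyocytes with array medians aligned. It also moved the share of calls that were lower against marrow c-kit cells to 37.6%, against 54.8% with quantile normalisation. Dim spots limit precision most on the side population arrays and heart c-kit replicate 2, and at the fill value no order is measured.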
